A study of Mus musculus with 4 samples.

Results

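The Slc29 and Slc28 genes encode the 2 families of proteins that carry nucleosides, the base-plus-sugar units of RNA and DNA, across membranes. They were examined in the established mouse fibroblast line NIH3T3, in which Ctcfl was switched on. The family members Slc29a1, Slc29a2, Slc29a3, Slc29a4, Slc28a1, Slc28a2 and Slc28a3 were taken by gene name, and all 7 were measured among 19938 named genes. The set was chosen by family name but selected on the measured difference of Slc29a3 between Ctcfl and control arrays, which was already known, so the differences of the 7 genes are given as a description of these arrays.

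Slc29 proteins, the equilibrative nucleoside transporters (ENT), let nucleosides pass down their concentration gradient. Slc28 proteins, the concentrative nucleoside transporters (CNT), pull them into the cell with the sodium gradient and are best known from absorptive epithelia. Cells that take up nucleosides can phosphorylate them for reuse, while nucleosides freed inside lysosomes by digestion of nucleic acids leave through the Slc29a3 product.

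All 4 samples came from a single stable clone that carried FLAG-tagged mouse Ctcfl in a vector that also holds EGFP, together with the second construct pTA-N, and transcription from the vector is shut off by doxycycline (Tet-Off). The Ctcfl group (2 arrays) was kept for 48 h in medium without the drug, and the control group (2 arrays) was grown with 2 µg/ml of it. Absence of the drug, induction of Ctcfl and any EGFP made from the vector therefore cannot be told apart. Values are log2 intensities after RMA, a method that makes arrays comparable and merges the probes of each gene region (a probe set), and 1 unit is a doubling. Whether the replicates came from separate cultures is not stated in the labels, so a p-value here covers only the array-to-array spread, possibly a technical one, and 4 arrays limit the precision.

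Ctcfl, which encodes a testis-expressed paralog of the insulator protein CTCF, read 10.37 and 10.35 on the Ctcfl arrays, against 7.77 and 7.71 on the control arrays. Of 10 fibroblast markers all but Lum, which read 2.82 to 2.98, lay above the upper quartile of every array (7.40 to 7.43), and their mean over 10 genes was 9.34 and 9.29 on the Ctcfl arrays, against 9.48 and 9.47 on the control arrays. Macrophage markers, which matter here because loss of Slc29a3 is best known from that cell type, averaged between 4.79 and 4.88 over 7 genes on the 4 arrays. Of these Cd68 (6.11 to 6.39) and Cd14 (5.88 to 6.32) read above the median of every array (5.20 to 5.24). Csf1r (5.20 to 5.59) read near or above it, and Ptprc, Adgre1, Itgam and Lyz2 read below it. Of the 10 fibroblast markers 6 (60%) were lower on both Ctcfl arrays than on both controls, where 20.6% of all genes were, and their part in the differences below was not tested. By limma 0 of 31 marker genes of 5 cell types passed an adjusted p of 0.05, where 0.0451% of all genes did, and 4 (12.9%) had an unadjusted p under 0.05, where 10.7% of all genes did. Of these 4 genes, 3 were fibroblast markers, all lower: Pdgfrb (-0.56), Col3a1 (-0.38) and Pdgfra (-0.29). That is 30% of the fibroblast markers, where 5.32% of all genes were lower at this unadjusted p. The other gene was the epithelial marker Krt8, which was higher (0.58).

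The window before the Slc29a3 start site is shown because this gene has the largest difference of the family, and that of Slc29a2 because it has the largest in the other direction. Both sequences are from RefSeq on GRCm38.p6 and cover the 250 bases before 1 annotated start, written 5′ to 3′ along the gene. Capitals mark GGGCGG, the GC box bound by Sp-family factors.
Slc29a3, chr10:60752783-60753032, minus strand: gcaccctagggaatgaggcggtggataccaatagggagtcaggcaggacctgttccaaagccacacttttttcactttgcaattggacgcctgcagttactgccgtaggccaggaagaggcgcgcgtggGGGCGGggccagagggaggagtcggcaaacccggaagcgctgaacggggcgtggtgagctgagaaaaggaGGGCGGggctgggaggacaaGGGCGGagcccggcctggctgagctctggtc
Slc29a2, chr19:5023756-5024005, plus strand: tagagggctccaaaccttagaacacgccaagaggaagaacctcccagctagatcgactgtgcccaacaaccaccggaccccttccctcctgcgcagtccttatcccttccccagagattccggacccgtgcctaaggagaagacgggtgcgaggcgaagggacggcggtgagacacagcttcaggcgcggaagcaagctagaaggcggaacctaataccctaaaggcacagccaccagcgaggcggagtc

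The Slc29a3 window holds 3 GC boxes and the Slc29a2 window 0. Of all 32851 RefSeq windows of this length, 32.7% hold at least 1 GC box on either strand. The letters AGGNGGC, part of the core sequence that CTCF binds and that CTCFL shares, were searched on both strands and are in neither window, while 25% of all windows hold them. The letters CACGTG, the core of the element recognised by the lysosomal gene regulator TFEB, are also in neither, and 6.02% of all windows hold them. Among the other members, there were 9 GC boxes before the Slc29a4 start, 2 before that of Slc28a3, 1 before that of Slc28a1 and 0 before that of Slc28a2, and 4 of the 8 annotated Slc29a1 starts had at least 1. AGGNGGC was found before the Slc28a2 start and before 4 of the 8 Slc29a1 starts, and CACGTG before 1 Slc29a1 start. Matches of different motifs may overlap, and they are letters in a window and not sites of binding. The gene models of both Slc29a3 and Slc29a2 extend beyond the start used here. That of Slc29a3 reaches 60752849, inside its window, whereas that of Slc29a2 begins at 5019057, upstream of its whole window. The Slc29a4 and Slc28a1 windows, from 142701851 and 81114549, also lie inside their gene models.

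Slc29a3 (ENT3; chr10:60712072-60752849 on GRCm38.p6, minus strand) encodes the equilibrative transporter of lysosomal membranes, whose inherited loss in humans causes histiocytosis. It read 7.82 and 7.79 on the Ctcfl arrays, against 6.61 and 6.76 on the control arrays. Both Ctcfl arrays lay above both control arrays, with 1.03 units between the nearest values, and the arrays of a group differed by 0.15 or less. The log2 difference was 1.12 (SE 0.09), or 2.17-fold higher on the Ctcfl arrays. By limma this gave an adjusted p of 0.0371 over all genes, the value through which the family was chosen. Slc29a3 was thus 1 of 7 members past an adjusted p of 0.05, where 0.0451% of all genes passed (9 genes) and 0.0301% passed as higher, and nothing is read from that count because the choice of members rests on it. The call did not hold with all 35511 probe sets tested or with replicate numbers as a block. In these 2 fits 0 probe sets and 0 genes passed in all, so they cannot set Slc29a3 apart from other genes. It also did not hold in any fit that left out 1 array. Each of those has 1 array in a group, so only the size is read from them, and it stayed between 1.05 and 1.20.

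Slc29a2 (ENT2; chr19:5019057-5031972), an equilibrative transporter of the plasma membrane that also carries bases, differed in the other direction. It read 6.0 and 5.72 on the Ctcfl arrays, against 6.21 and 6.41 on the control arrays. The groups did not overlap, but the gap between them (0.21) was smaller than the distance between the 2 Ctcfl arrays (0.28). The log2 difference was -0.45 (SE 0.13), and the gene did not pass (adjusted p = 0.355 by limma).

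Slc29a1 (ENT1; chr17:45585200-45599618) encodes the widely expressed equilibrative transporter of the plasma membrane that dipyridamole blocks. It read 7.44 and 7.33 on the Ctcfl arrays, against 7.59 and 7.62 on the control arrays. All 4 values lay close together, with the Ctcfl arrays below the control arrays, and the log2 difference was -0.22 (SE 0.09, adjusted p = 0.458 by limma). Slc29a4 (ENT4, also called PMAT; chr5:142692478-142722490), a transporter of monoamines and adenosine, read 5.07 and 4.75 on the Ctcfl arrays, against 4.73 and 4.79 on the control arrays. Here the groups overlapped: 1 Ctcfl array stood above the other 3 arrays, and the difference of 0.15 (SE 0.12) turned to -0.01 without it.

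**Figure D1:**
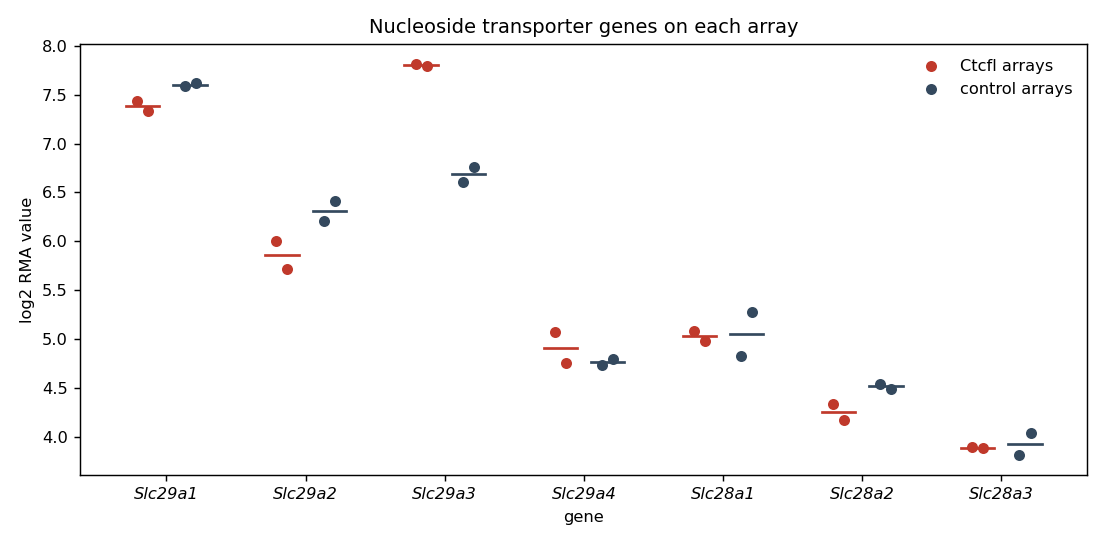
Log2 RMA value (vertical axis) of each nucleoside transporter gene on the 2 Ctcfl arrays (red) and the 2 control arrays (dark blue), with a short line at each group's mean. For Slc29a3 the Ctcfl arrays, at 7.82 and 7.79, stand clear of the control arrays at 6.61 and 6.76, while the other 6 genes have groups that overlap or differ by less than 0.5. Heights of different genes come from different probes and are not comparable.

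The concentrative transporters read near or below the median of the arrays (5.20 to 5.24). Slc28a1 (CNT1; chr7:81113269-81170416), which prefers pyrimidine nucleosides, read 5.08 and 4.98 on the Ctcfl arrays, against 4.83 and 5.28 on the control arrays. Both Ctcfl values lay between the 2 control values, and the log2 difference was -0.03 (SE 0.15). Slc28a3 (CNT3; chr13:58553307-58610877), which takes purine and pyrimidine nucleosides, read 3.89 and 3.88 on the Ctcfl arrays, against 3.81 and 4.04 on the control arrays. Again the control arrays enclosed the Ctcfl arrays, with a difference of -0.04 (SE 0.10). All 4 Slc28a3 values were below the lower quartile of their arrays (4.09 to 4.12), where a value cannot be told from background without detection calls.

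Slc28a2 (CNT2; chr2:122426357-122461152), which prefers purine nucleosides, read 4.33 and 4.17 on the Ctcfl arrays, against 4.54 and 4.49 on the control arrays. The groups did not overlap, and the log2 difference was -0.27 (SE 0.09, adjusted p = 0.431 by limma). Its relative Slc28a2b lies 23.8 kb away and read 4.99 and 4.44 on the Ctcfl arrays, against 4.93 and 4.96 on the control arrays. The Slc28a2b values of the Ctcfl arrays were spread on both sides of the control values. How far the probe sets of these relatives respond to each other's RNA was not known, so the Slc28a2 value is uncertain.

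Across the family, 2 genes had a higher and 5 a lower mean on the Ctcfl arrays, and the median log2 difference was -0.04, against 0.00 over all genes. The groups did not overlap for 4 of 7 members, 1 higher (14.3%) and 3 lower (42.9%). Over all genes 41.1% had groups that did not overlap, 20.6% higher and 20.6% lower. The same 4 members (57.1%) had an unadjusted p under 0.05 by limma, where 10.7% of all genes did, 5.36% higher and 5.32% lower. The 1 higher gene is Slc29a3, on which the family was chosen, so nothing is read from these counts. The 6 members other than Slc29a3 had adjusted p-values from 0.355 to 0.963. Slc28a1 had the widest 95% interval, -0.40 to 0.35, and Slc29a1 the narrowest, -0.43 to -0.01. For Slc29a4 it was -0.15 to 0.45 and for Slc28a3 -0.29 to 0.21, so the arrays leave room for differences of that size.

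**Figure D2:**
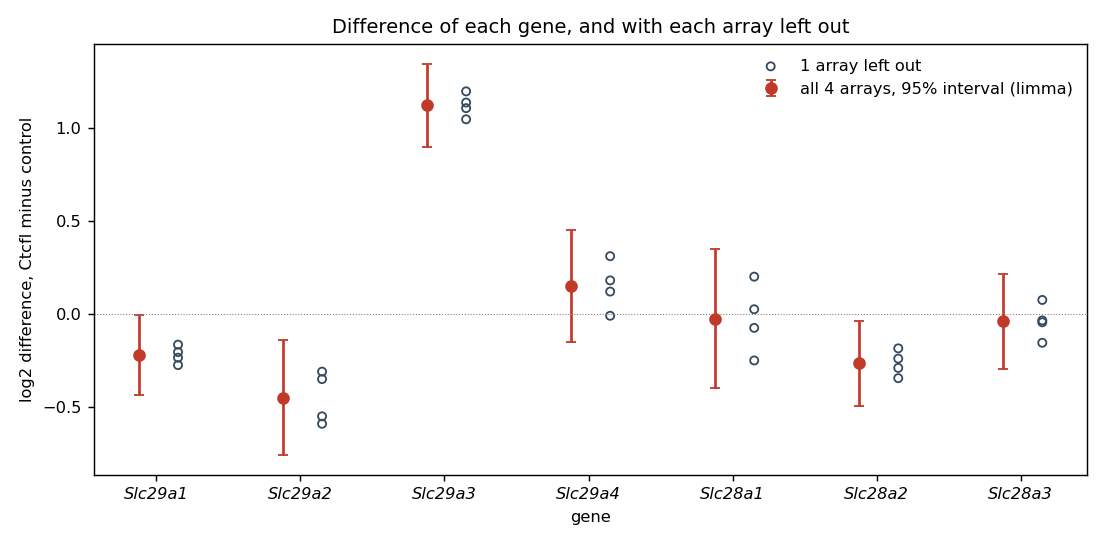
Log2 difference, Ctcfl minus control (vertical axis), of each nucleoside transporter gene over all 4 arrays (red, with the 95% interval from limma) and with each array left out in turn (open circles). The 4 values for Slc29a3 run from 1.05 to 1.20, whereas those of Slc29a4, Slc28a1 and Slc28a3 fall on both sides of 0.

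The solute carrier (Slc) superfamily holds transporters for most small solutes. Among its 356 measured genes with symbols of Slc and a number, Slc29a3 had the largest difference in size, on which the family was chosen. The next were the glutamate transporter gene Slc1a3 at -0.83 (SE 0.09) and the amino acid transporter gene Slc43a1 at 0.68 (SE 0.10). By size Slc29a2 stood at place 10 among the Slc genes, Slc28a2 at 36 and Slc29a1 at 58. Without the 7 nucleoside transporters, 0 of 349 Slc genes passed by limma, 48 (13.8%) had an unadjusted p under 0.05, where 10.7% of all genes did, and the median difference was 0.01.

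**Figure D3:**
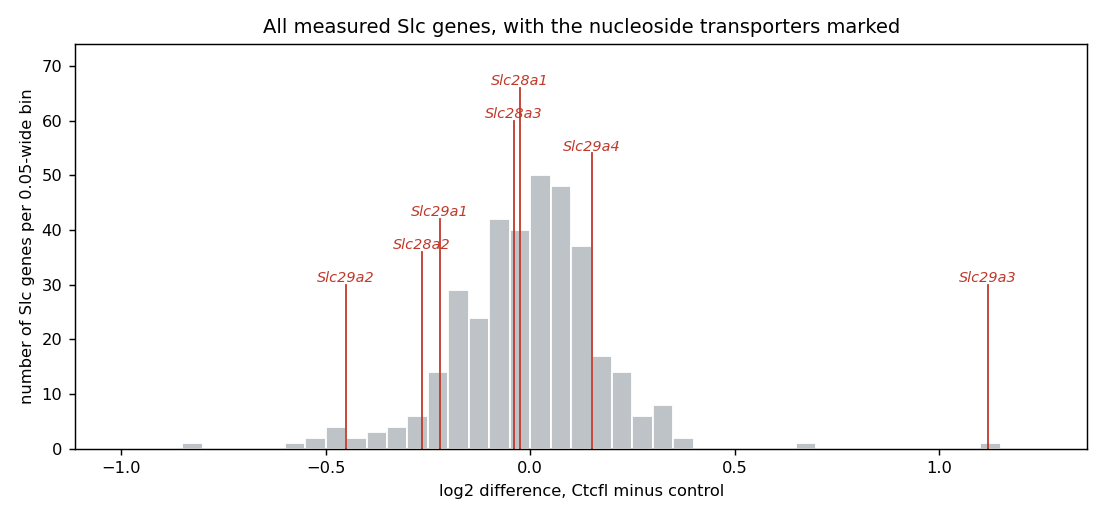
Number of measured Slc genes (vertical axis) by log2 difference, Ctcfl minus control (horizontal axis, bins 0.05 wide), with a red line at each nucleoside transporter gene, the heights of which carry no value. Most of the 356 genes lie near 0, Slc29a3 lies at 1.12 and Slc29a2 at -0.45.

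Both genes next to Slc29a3 on chromosome 10 had small differences and overlapping groups. Unc5b, a netrin receptor gene 9.75 kb away, read 6.06 and 6.15 on the Ctcfl arrays, against 6.16 and 6.01 on the control arrays, a log2 difference of 0.02 (SE 0.10). Cdh23, a cadherin gene 15.6 kb away on the other side, read 4.62 and 4.65 on the Ctcfl arrays, against 4.62 and 4.49 on the control arrays, a difference of 0.08 (SE 0.09). Within 100 kb of any member lay 32 measured genes, and none passed by limma. Of them 1 (3.1%) had an unadjusted p under 0.05, where 10.7% of all genes did. It was the stromal glycoprotein gene Cd248 near Slc29a2 (0.28, SE 0.09, adjusted p = 0.401). The median of the 32 was 0.00, and their differences ran from -0.35 to 0.28.

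Genes were also compared by the shape of their 4 values, each taken relative to the mean of the gene's own control arrays. Those with Gm, Rik, LOC, BC, Olfr, Vmn or Mir symbols, mainly predicted, olfactory and vomeronasal genes, were passed over. Among the rest Slc29a3 was nearest to Rab29, a small GTPase gene (Euclidean distance 0.29 log2 units over 4 arrays), and to Capns2, a calpain small subunit gene (0.30). Col5a2 (0.37), a collagen chain gene, Fam234a (0.43) and the interferon gene Ifnz (0.45) followed. With 2 arrays a group this mostly ranks genes by how near their difference is to 1.12: Rab29 had 1.11 (SE 0.11) and Capns2 1.31 (SE 0.12).

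Genes around nucleoside transport were followed in 9 lists with 125 measured genes. The lists cover nucleoside and nucleotide metabolism and carriers, nucleotide receptors, lysosomal transport and endosomal sensing of nucleic acids, so not all the genes act on nucleosides. By limma 0 of these passed an adjusted p of 0.05, and 20 (16.0%) had an unadjusted p under 0.05, 10 higher (8.0%) and 10 lower (8.0%), where 10.7% of all genes did, 5.36% higher and 5.32% lower. With an intensity trend and robust variances, where 2.4% of all genes passed, 5 of the 125 did: Tk1 and P2rx3 as lower, and Impdh1, Ostm1 and Mfsd1 as higher. The named genes below therefore have values and no call in the main test, and their groups did not overlap unless stated.

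Among carriers of bases and nucleotides, 0 of 9 passed by limma and 0 had an unadjusted p under 0.05, with a median log2 difference of 0.01 and a range of -0.18 to 0.15. The purine base transporter gene Slc43a3 read 8.64 and 8.63 on the Ctcfl arrays, against 8.65 and 8.77 on the control arrays. The largest values were those of Slc17a9, the vesicular nucleotide transporter (-0.18, overlapping groups), Slc25a25 (0.15), the pyrimidine nucleotide carrier Slc25a33 (0.11, overlapping groups) and Slc25a42 (0.10).

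Salvage enzymes turn imported nucleosides and bases back into nucleotides, and 0 of 11 passed by limma, with a median of -0.02. Of the 11 genes 2 (18.2%) had an unadjusted p under 0.05, both lower, where 10.7% of all genes did. Tk1, the cytosolic thymidine kinase of dividing cells, read 9.27 and 9.28 on the Ctcfl arrays, against 9.57 and 9.51 on the control arrays, a difference of -0.27 (SE 0.08, adjusted p = 0.387). Aprt, which salvages adenine, had -0.25 (SE 0.10) and Adk, the adenosine kinase, 0.22 (SE 0.11). Dck, the deoxycytidine kinase (-0.06), Uckl1 (0.09) and Hprt, which salvages hypoxanthine and guanine (-0.02), had overlapping groups.

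Breakdown enzymes had 0 of 12 past the threshold by limma, with a median of -0.09. An unadjusted p under 0.05 was found for 2 (16.7%), both lower, where 10.7% of all genes had one. Ada, the adenosine deaminase, read 5.54 and 5.79 on the Ctcfl arrays, against 6.18 and 6.08 on the control arrays. Both Ctcfl values were below both control values, and the difference was -0.47 (SE 0.11, adjusted p = 0.312). Upp1, the uridine phosphorylase, had -0.28 (SE 0.09), Upb1, the last enzyme of pyrimidine base breakdown, 0.18 (SE 0.11), and Samhd1, which hydrolyses deoxynucleotides, 0.15 (SE 0.09). Pnp, the purine nucleoside phosphorylase, had 0.13 (SE 0.08).

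Nucleotidases and ectonucleotidases take phosphate groups off nucleotides, and not all of the listed enzymes yield nucleosides. Of these 0 of 16 passed the threshold by limma, with a median of 0.02. Where 10.7% of all genes had an unadjusted p under 0.05, 3 of the 16 (18.8%) did, all lower. These were Nt5c3 (-0.36, SE 0.14), the mitochondrial Nt5m (-0.26, SE 0.10) and Nt5c3b (-0.22, SE 0.08), and the cytosolic Nt5c2 had 0.20 (SE 0.09). Nt5e (CD73), which makes adenosine outside the cell, read 4.48 and 4.26 on the Ctcfl arrays, against 4.56 and 4.38 on the control arrays, so its groups overlapped. Of receptors, 0 of 14 passed by limma, with a median of 0.04. An unadjusted p under 0.05 was found for 3 (21.4%), 1 higher and 2 lower, against the same 10.7% of all genes. P2rx3, an ATP-gated channel best known from sensory neurons, read 6.43 and 6.18 on the Ctcfl arrays, against 7.13 and 7.21 on the control arrays. Its groups were 0.70 apart at the nearest, with a difference of -0.87 (SE 0.11, adjusted p = 0.115). P2ry14 had -0.25 (SE 0.10), P2ry12 0.25 (SE 0.10) and P2rx5 0.22 (SE 0.08). All 4 P2ry12 values were below the lower quartile of their arrays (4.09 to 4.12). The 4 adenosine receptor genes were not analysed here.

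Slc29a3 acts in the lysosome, so genes of that organelle were set beside it. Of 28 other lysosomal transporters and channels 0 passed by limma, with a median of 0.08, against 0.00 over all genes. An unadjusted p under 0.05 was found for 6 (21.4%), all higher, where 10.7% of all genes had one, 5.36% as higher. The groups did not overlap for 9 higher (32.1%) and 3 lower (10.7%), where 20.6% of all genes were higher and 20.6% lower in this sense. Ostm1, the partner subunit of the lysosomal chloride channel, read 9.04 and 9.07 on the Ctcfl arrays, against 8.70 and 8.60 on the control arrays (0.41, SE 0.09, adjusted p = 0.266). Slc36a1, an exporter of small amino acids, had 0.34 (SE 0.09), the peptide pump gene Abcb9 0.29 (SE 0.10) and Mfsd1 0.25 (SE 0.08). That of Ostm1 was the highest difference of the 28, against 1.12 for Slc29a3.

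The list of lysosomal nucleic acid breakdown, which holds nucleases and acid phosphatases, had 0 of 6 past the threshold by limma and 0 unadjusted, with a median of 0.09. The values were 0.19 for the acid phosphatase gene Acp5 (SE 0.10) and 0.16 for the exonuclease gene Pld3 (SE 0.09). Dnase2a (-0.11), the lysosomal DNase, Dnase2b (0.20) and Pld4 (-0.15) had overlapping groups. Among endosomal sensors of nucleic acids 0 of 8 passed by limma, with a median of 0.06. Of these 2 (25%) had an unadjusted p under 0.05, both higher, where 10.7% of all genes did. Tlr3, a receptor for double-stranded RNA, read 4.73 and 4.80 on the Ctcfl arrays, against 4.10 and 4.38 on the control arrays (0.53, SE 0.12, adjusted p = 0.276). Unc93b1, the chaperone of these receptors, had 0.26 (SE 0.10), with both control values (3.86 and 4.02) below the lower quartile of their arrays. The adaptor gene Myd88 had -0.19 (SE 0.08) and Irf5 -0.14 (SE 0.09). Tlr7, the RNA receptor that Slc29a3 is known to restrain in mouse macrophages, read 3.42 and 3.53 on the Ctcfl arrays, against 3.31 and 3.45 on the control arrays, with overlapping groups below the lower quartile of every array.

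The enzymes that build nucleotides from small precursors, the alternative to uptake and salvage, had 0 of 21 past the threshold by limma. An unadjusted p under 0.05 was found for 2 (9.52%), where 10.7% of all genes had one. The means of the 21 genes were lower for 16 and higher for 5, with a median of -0.10. The groups did not overlap for 13 lower genes (61.9%) and 2 higher genes (9.52%), where 20.6% of all genes were lower in this sense and 20.6% higher. Impdh1, an enzyme of guanine nucleotide synthesis, had the highest difference of the list and read 8.15 and 8.02 on the Ctcfl arrays, against 7.36 and 7.51 on the control arrays (0.65, SE 0.10, adjusted p = 0.156). Cad, which starts pyrimidine synthesis, had -0.26 (SE 0.09), and the purine synthesis genes Ppat and Adsl had -0.20 (SE 0.08) and -0.22 (SE 0.09).

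**Figure D4:**
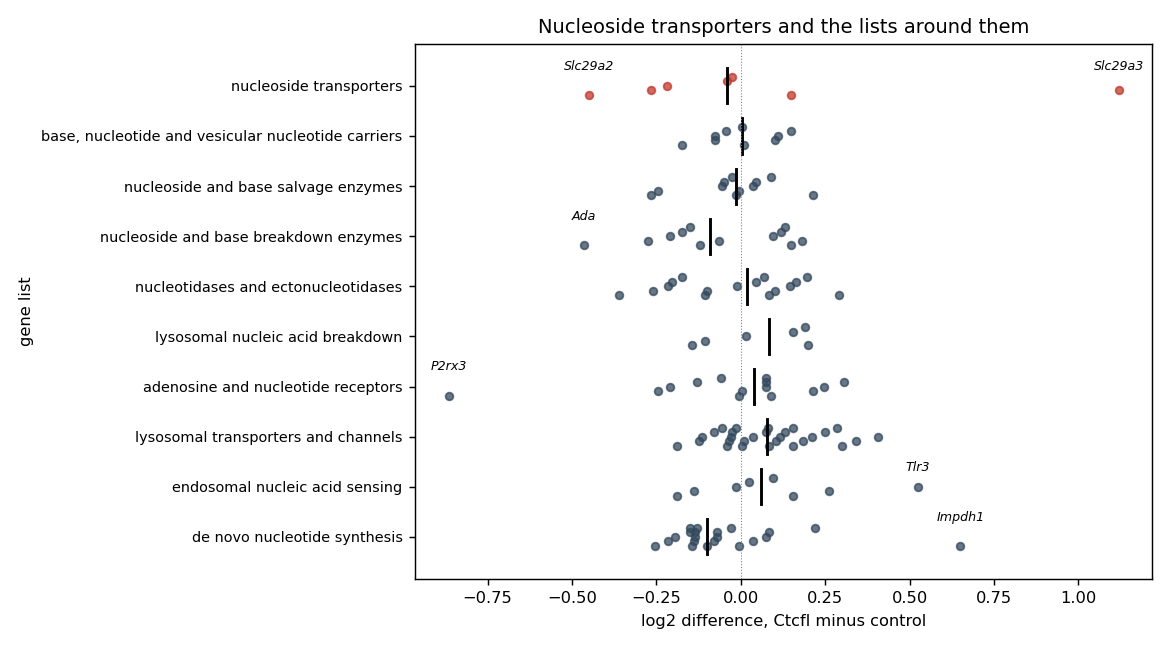
Log2 difference, Ctcfl minus control (horizontal axis), of each measured gene in the nucleoside transporter family (red) and in 9 lists of genes around it (dark blue), 1 list a row, with a black line at each list's median. Names mark genes at least 0.44 from 0. Slc29a3, on whose difference of 1.12 the family was chosen, lies beyond every gene of the 9 lists. The de novo synthesis genes lie mostly left of 0 with Impdh1 at 0.65.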

How the data were processed

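RNA from 4 samples was measured on Affymetrix arrays, 2 per group. The authors deposited log2 values computed by RMA in the Expression Console software, per the labels. Its version, its settings and the probe positions are not given in the sources used here. Of 35511 probe sets with values, 21789 had 1 gene symbol in the platform annotation, 1621 had several and 12101 were not listed there. Each gene was represented by its brightest probe set, and each member had only 1. Positions and promoter windows came from RefSeq, GRCm38.p6.

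Groups were compared with limma 3.58.1 (lmFit, eBayes, two-sided) in R 4.3.3, with Benjamini-Hochberg adjustment over 19938 genes, a threshold of 0.05 and no filter, and tested on simulated data. The members and lists were chosen with earlier results of these data known. Genes named from each list were those past the threshold or otherwise the 4 with the smallest unadjusted p, plus 10 fixed genes of nucleoside handling, of which Adora2b was not analysed here; Tlr7, Slc1a3, Slc43a1, Cd248 and Slc28a2b were added after their values were seen. Genes within 100 kb of Slc29a3 and the 5 genes nearest to it in pattern, among those not passed over by symbol, were also named. Alternatives were a replicate block, each array left out, robust variances with an intensity trend (using statmod 1.5.0), quantile normalisation, median centring, a filter that drops the dimmest 33.3% of genes, averaging a gene's probe sets, and testing all probe sets.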

Additional observations from a re-analysis of the deposited data

How the results depend on the processing

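Slc29a3 kept its direction under every alternative run, with a log2 difference of 1.09 to 1.13 under those that kept all 4 arrays. By limma it passed with the intensity trend (adjusted p = 2.33e-06), quantile normalisation (0.0395), median centring (0.0476) and without the dimmest 33.3% of genes (0.0183). It also passed with the mean of probe sets (0.0353), where its own values were unchanged because it has 1 probe set. Slc29a3 was chosen on this contrast in the same 4 arrays, so these passes add no support. It did not pass with the replicate number as a block (1.12, adjusted p = 0.651) or over all probe sets (1.12, adjusted p = 0.600), where 0 genes and 0 probe sets passed in all (1468 and 2764 unadjusted). Same-numbered arrays deviated slightly in opposite directions (correlation -0.10 over genes), and with crossed numbers as the block, chosen after seeing this, 0 genes passed (2105 unadjusted) and Slc29a3 had 1.12 (adjusted p = 0.463). Without 1 array Slc29a3 had 1.05 to 1.20, and 0 genes and 0 Slc genes passed (1329 to 1663 genes unadjusted); these fits have fewer arrays. With 1 array left out, the ranges were -0.01 to 0.31 for Slc29a4, -0.25 to 0.20 for Slc28a1 and -0.155 to 0.075 for Slc28a3, each with both signs. The direction of Slc29a1, Slc29a2 and Slc28a2 held in all alternatives that tested them; the dim-gene filter removed Slc28a2 and Slc28a3. The count of 9 genes became 479 with the trend (2.4% of genes) and 20 without the dimmest 33.3%, and that of 1 Slc gene became 12 and 2, but 0 with either block or over all probe sets. With the trend, Tk1 (1 salvage gene), P2rx3 (1 receptor), Ostm1 and Mfsd1 (2 lysosomal genes) and Impdh1 (1 synthesis gene) passed, as did no other gene of the 9 lists and no nucleoside transporter but Slc29a3. Some of these fits had fewer arrays or more probe sets, and why the calls changed between fits was not tested. Distance from background was not measured, which limits the Slc28 genes most.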
